A study of Mus musculus with 153 samples.

Results

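The genes described here are 45 Wnt pathway genes among the 18810 genes measured in mouse tail skin. They are every measured gene whose symbol begins with Wnt, Fzd, Dkk or Sfrp followed by a number, together with Lrp5, Lrp6, Axin2, Lef1, Ctnnb1, Wif1 and Notum, each read from its probe set with the highest mean. They comprise 19 Wnt ligands, 10 Frizzled receptors, 2 co-receptors (Lrp5 and Lrp6), 10 secreted antagonists (Dkk1 to Dkk4, Sfrp1, Sfrp2, Sfrp4, Sfrp5, Wif1 and Notum), 3 intracellular effectors (Axin2, Ctnnb1 and Lef1) and Fzd10os, a transcript antisense to Fzd10. Tcf7 is not analysed here. The mice came from a backcross. Its founders were males of Mus spretus and FVB/N females that lacked a working copy of Hras, the gene of a small GTPase of growth factor signalling, and the hybrid daughters were crossed back to FVB/N males with 0 or 1 working copies. The skin was taken at 8 weeks of age without treatment and hybridised to 1 Affymetrix array per mouse. The comparisons use 37 HET mice (Hras +/-; 9, 10 and 18 on array plates 1, 2 and 3) and WT mice (Hras +/+; 40, 36 and 38 on those plates), of which 81 were male and 70 female. All of them carried a mixture of spretus and FVB/N chromosome segments that differed between mice. By this cross the mother's working Hras was the spretus allele, which every WT mouse carries and a HET mouse may lack. A difference with genotype and one with spretus segments linked to Hras therefore cannot be told apart. The alleles at the Wnt genes' own loci were not used here, so that a difference between mice in transcript level and one in how well a spretus transcript binds the probes cannot be told apart.

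Wnt proteins are secreted, lipid-modified ligands that bind Frizzled receptors. With the co-receptors Lrp5 or Lrp6 they stabilise beta-catenin (the product of Ctnnb1), which enters the nucleus and activates genes through DNA-binding partners of the TCF/LEF family such as Lef1, whereas other Wnts, among them Wnt5a and Wnt11, act largely without beta-catenin. Dkk1, Dkk2 and Dkk4 block the co-receptors, Sfrp proteins and Wif1 bind Wnts outside the cell, Notum removes their lipid, and Axin2 is both a brake on beta-catenin and one of its target genes. In skin the pathway is known for starting and renewing hair follicles and for the formation of the hair shaft, and Lef1 is made in the hair matrix and the cells that become the shaft.

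Arrays carry no read depth, and the number of mice limits the precision. Array medians ran from 4.67 to 4.88 on the log2 scale of the deposited values. Another 2 arrays (WT, male, plate 2) carry an outlier label and are left out unless stated. The markers of skin were present: the mean log2 level of 6 basal epidermis genes (Krt5, Krt14 and others) lay between 9.72 and 10.4 in every mouse. Genotype was taken from the labels without a check against Hras itself. Of the 45 genes, Wnt1, Wnt7a, Wnt8b, Wnt9b and Dkk4 had means below the lower quartile of all gene means (3.43), where a level is poorly measured. The other 40 lay above it, Sfrp5 (3.45) and Wnt8a (3.54) by little.

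The widest spread between mice was in 3 antagonists, 1 ligand and Lef1. After plate, sex and genotype were removed, Sfrp4, a secreted Wnt-binding protein of the dermis, had a residual SD of 0.55 on the log2 scale, and its level ran from 4.60 through a median of 5.89 to 7.45. Lef1 (residual SD 0.54) ran from 4.72 through 6.14 to 7.94, a 9.29-fold span between the lowest and the highest mouse. Sfrp2, another Wnt-binding protein (residual SD 0.50), ran from 4.85 through 6.0 to 8.00. In each of these 3 genes the highest mouse stood 7.23-fold or more above the lowest. Wif1 (0.48) ran from 5.61 through 6.61 to 7.88, and Wnt2, a ligand that acts through beta-catenin (0.47), from 3.02 through 4.25 to 5.70. These 5 genes, 11.1% of the 45, lay above the 95th percentile of residual SD over all genes (0.44). Next came Sfrp5 (0.42), Dkk1 (0.33), Wnt11 (0.33), Dkk2 (0.32) and Wnt10b (0.31).

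At the other end, the co-receptors and Ctnnb1 varied least. Their mean levels (8.00 for Lrp6, 10.3 for Ctnnb1 and 8.27 for Lrp5) were among the highest of the 45. The part of signal level in their small spread was not tested. Lrp6 (residual SD 0.12, levels from 7.58 to 8.33), Ctnnb1 (0.12, from 9.87 to 10.6) and Lrp5 (0.12, from 7.89 to 8.51) all lay below the 5th percentile of all genes (0.13). Their spans were 1.68-fold, 1.71-fold and 1.54-fold. The median residual SD was 0.33 over the 10 antagonists, 0.26 over the 19 ligands, 0.23 over the 10 Frizzled receptors and 0.12 over the co-receptors, beside 0.22 over all genes. Axin2 lay between these, with a residual SD of 0.20 and levels from 5.26 through 5.77 to 6.29. Sex, plate and genotype left 85.7% (Lrp6) to 99.4% (Wnt10a) of each gene's variance unaccounted for. Array noise was not separated from differences between mice.

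**Figure D1:**
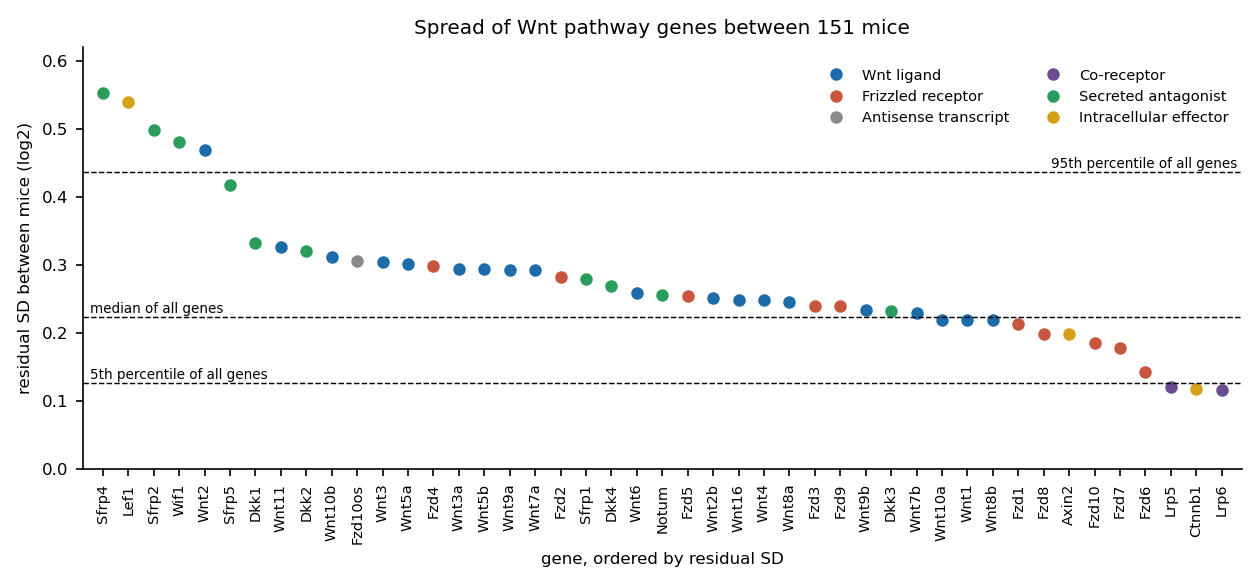
Residual SD between mice (y axis, log2, after plate, sex and genotype were removed) of each of the 45 genes (x axis, ordered), coloured by family, with dashed lines at the 95th percentile (0.44), median (0.22) and 5th percentile (0.13) of all genes. Sfrp4, Lef1, Sfrp2, Wif1 and Wnt2 lie above the upper line, and Lrp5, Ctnnb1 and Lrp6 below the lower one.

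To ask what the spread followed, each gene was set against scores of cell type markers, the mean of the standardised levels of a list's genes in each mouse. In bulk skin a lower score can be fewer cells of a type or less RNA per cell, and these cannot be told apart. The score of 22 hair shaft and inner root sheath genes (hair keratins such as Krt35 and Krt25, trichohyalin and regulators such as Foxn1) was entered as a covariate in limma beside plate, sex and genotype. With it 15 of the 45 Wnt pathway genes rose and 2 fell, against 8.95% of all genes rising and 9.18% falling. None of the 45 genes is on the list itself.

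Lef1 followed the hair shaft score most closely of the 45, with r = 0.836 and rho = 0.837 over all mice used (permutation p = 1e-05 for each, the smallest the 100000 draws can give; 6.7e-05 after Benjamini-Hochberg adjustment over 630 relations) and a slope of 0.52 ± 0.03 log2 units per unit of score (SE, limma adjusted p = 3.47e-38). Without the 2 mice farthest from the median score r was 0.842, and on plates 1, 2 and 3 it was 0.873, 0.840 and 0.782. Wnt11, a ligand that acts largely without beta-catenin, had r = 0.751 and rho = 0.749 (permutation p = 1e-05 for each, limma adjusted p = 7.51e-26), r = 0.760 without those 2 mice, and 0.759, 0.666 and 0.834 on the plates. For both genes r was 0.666 or higher on each plate taken alone. Among receptors, Fzd1 (r = 0.670), Fzd5 (0.664), Fzd3 (0.566), Fzd2 (0.487) and Fzd4 (0.438) rose, as did the co-receptor Lrp6 (0.513) and Ctnnb1 (0.574). Of the ligands, Wnt5a (r = 0.612), Wnt10b, which promotes hair follicle growth (0.479), and Wnt8a (0.336) rose. Of the antagonists, Sfrp2 (0.294), Sfrp1 (0.283) and Notum (0.257) rose. The genes that fell, fewer than the share of all genes gives, were Wnt4, a ligand of the epidermis (r = -0.253), and Wnt16 (-0.234). For Axin2 r was -0.197 (adjusted p = 0.082), which did not pass.

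**Figure D2:**
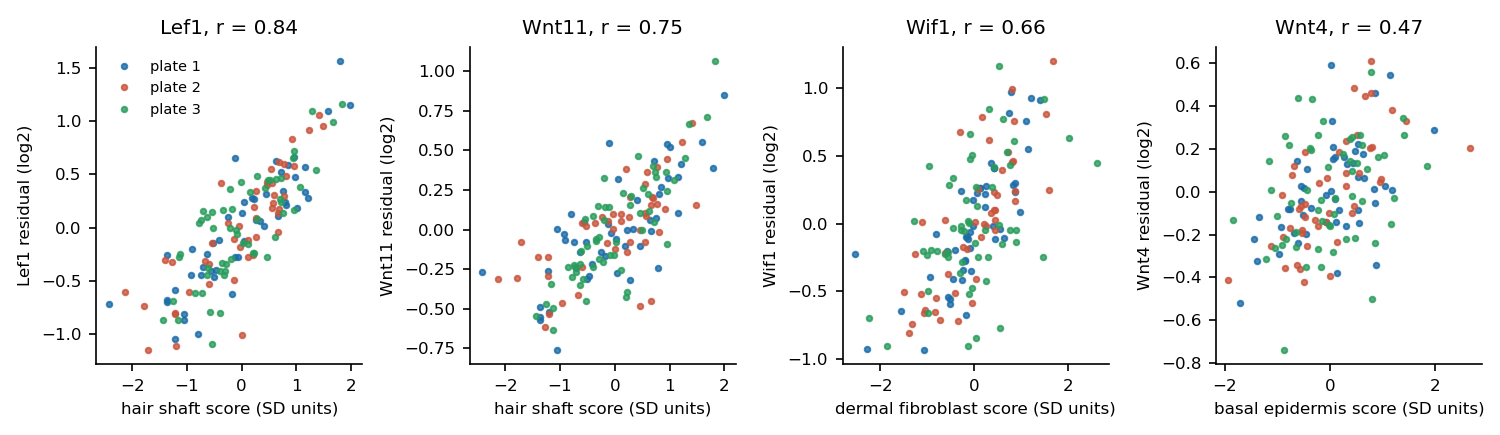
Residual level (y axes, log2) against residual marker score (x axes, mean of standardised levels) for Lef1 and Wnt11 with hair shaft genes, Wif1 with dermal fibroblast genes and Wnt4 with basal epidermis genes. Each point is 1 mouse, coloured by plate, and the points of each plate run the same way, most tightly for Lef1 (r = 0.836).

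TCF/LEF proteins, Lef1 among them, bind a short core motif. Promoters of genes that moved with the hair shaft score, and that of Axin2, which did not pass, are therefore shown. RefSeq windows of 300 bases (250 before to 50 after a transcript start, assembly GRCm38.p6) matched 29 of the 45 genes, with 36 windows in all. They were searched on both strands for CTTTGAA and CTTTGAT, and a match is written in capitals. Windows of 3 genes (Wnt11, Dkk1 and Wnt5b) held a match, or 8.33% of the 36 windows, beside 8.65% of 32851 RefSeq promoter windows. The windows of Wnt11 and Lef1, the pair that followed the score most closely, of Fzd1, the receptor with the highest r, and of Axin2, the feedback target, read 5′ to 3′ on the gene's strand as follows.
Wnt11, chr7:98834862-98835161, plus strand: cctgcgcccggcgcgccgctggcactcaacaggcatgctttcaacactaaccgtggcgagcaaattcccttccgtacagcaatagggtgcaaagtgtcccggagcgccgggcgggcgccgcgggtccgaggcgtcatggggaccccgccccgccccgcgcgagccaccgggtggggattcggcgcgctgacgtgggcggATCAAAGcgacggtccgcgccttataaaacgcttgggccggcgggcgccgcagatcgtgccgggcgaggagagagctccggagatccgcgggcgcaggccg
Lef1, chr3:131110047-131110346, plus strand: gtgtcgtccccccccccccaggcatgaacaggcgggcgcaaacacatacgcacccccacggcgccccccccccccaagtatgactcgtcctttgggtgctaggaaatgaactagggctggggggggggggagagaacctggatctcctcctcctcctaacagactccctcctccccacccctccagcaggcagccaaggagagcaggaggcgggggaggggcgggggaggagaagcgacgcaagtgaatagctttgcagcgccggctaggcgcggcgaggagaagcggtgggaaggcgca
Fzd1, chr5:4758167-4758466, minus strand: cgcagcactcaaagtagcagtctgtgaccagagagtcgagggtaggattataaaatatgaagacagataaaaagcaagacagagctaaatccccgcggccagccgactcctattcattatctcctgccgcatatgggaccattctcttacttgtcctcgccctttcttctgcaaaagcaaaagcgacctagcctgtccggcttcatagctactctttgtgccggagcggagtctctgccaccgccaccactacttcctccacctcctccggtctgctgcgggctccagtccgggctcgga
Axin2, chr11:108920099-108920398, plus strand: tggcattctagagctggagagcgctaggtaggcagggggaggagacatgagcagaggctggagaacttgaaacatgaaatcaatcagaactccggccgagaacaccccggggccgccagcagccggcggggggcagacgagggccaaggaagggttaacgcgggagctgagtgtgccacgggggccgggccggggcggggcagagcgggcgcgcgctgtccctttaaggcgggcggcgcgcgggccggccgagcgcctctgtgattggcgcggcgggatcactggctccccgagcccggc
In the Wnt11 window the capitals mark CTTTGAT read on the opposite strand, and a second RefSeq window of Wnt11 held no match. The Lef1, Fzd1 and Axin2 windows hold neither motif, which says only that these letters are not within them. Lef1 has further RefSeq start sites whose windows held no match either.

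The score of 7 dermal fibroblast genes (Col1a1, Dcn and others) sorted the 45 genes differently. With it 13 rose and 8 fell, against 13.3% and 14.7% of all genes. The rising genes were led by secreted antagonists: Wif1 had r = 0.659 and rho = 0.668 (permutation p = 1e-05 for each, limma adjusted p = 2.38e-18, 0.678 without the 2 farthest mice, and 0.770, 0.802 and 0.469 on the plates), and Sfrp4 had r = 0.565 (0.479, 0.665 and 0.473 on the plates). Fzd4 (0.514), Wnt2 (0.492), Dkk2 (0.452), Dkk3, a divergent member of the Dkk family (0.417), Sfrp2 (0.409), Fzd1 (0.399), Wnt5a (0.368), Wnt9a (0.337), Fzd2 (0.306), Sfrp5 (0.223) and Lrp6 (0.221) also rose. The falling genes, in number near the share of all genes, were Fzd6 (r = -0.479), Wnt10a (-0.462), Wnt4 (-0.455), Fzd10 (-0.350), Wnt3 (-0.323), Lrp5 (-0.303), Wnt7b (-0.269) and Wnt3a (-0.221). In the residuals the fibroblast score had r = -0.028 with the hair shaft score and -0.343 with the basal epidermis score. These measures therefore overlap in part. Larger overlaps were with marker scores taken up below: r = 0.795 with macrophage genes, 0.782 with endothelial genes and 0.641 with dermal papilla genes. The lowest was -0.420, with differentiated epidermis genes. Whether the genes named here followed fibroblasts rather than these other cells was not tested.

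With the score of 6 basal epidermis genes 7 of the 45 genes rose and 17 fell, against 12.1% and 10.3% of all genes. The number that rose was near the share of all genes. Wnt4 had r = 0.474 and rho = 0.482 (permutation p = 1e-05 for each, limma adjusted p = 1.22e-07, 0.467 without the 2 farthest mice, and 0.521, 0.634 and 0.256 on the plates). Axin2 had r = 0.437 (0.439, 0.561 and 0.365 on the plates, adjusted p = 2.35e-06) and Lrp5 had r = 0.417. The other risers were Wnt10a, Wnt3, Fzd6 and Wnt3a, with r between 0.229 and 0.299. Of the falling genes Wnt5a (r = -0.465), Wnt11 (-0.427) and Lef1 (-0.414) had the most negative r. The basal and hair shaft scores were themselves opposed (r = -0.394). With the 3 scores in 1 model, 16 genes rose and 1 (Wif1) fell with the hair shaft score, against 10.7% and 10.1% of all genes in that model. With the fibroblast score 14 rose and 7 fell, against 11.9% and 10.1%. With the basal epidermis score 5 rose (Axin2, Fzd6, Lrp5, Wnt10a and Wnt4) and 1 (Wnt11) fell, against 7.49% and 4.25%. Both of these counts were near the share of all genes. This model was chosen after the separate fits had been seen.

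Correlations with 11 further marker scores were computed as a description, 630 in all with the 3 above. Wnt5a had r = 0.664 with dermal papilla genes, the signalling cells at the follicle base, and Fzd4 had 0.623. Fzd7 had its highest r (0.592) with hair follicle stem cell genes and Wnt4 its lowest (-0.517). Wnt3 had 0.549 with differentiated epidermis genes, where Fzd4 had -0.589. Fzd4 (0.614), Wif1 (0.572) and Wnt2 (0.553) had high values with endothelial genes, and Sfrp4 (0.599) and Wif1 (0.592) with macrophage genes. Dkk1 had its highest r (0.465) with cartilage, bone and tendon genes. Melanocyte genes gave no r beyond 0.212 in size. The marker lists share mice, and several scores rise and fall together, among them the macrophage and endothelial scores (r = 0.724). Both also rose with the fibroblast score. The values of Fzd4, Wif1, Wnt2 and Sfrp4 with them are therefore not independent of those with fibroblast genes.

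**Figure D3:**
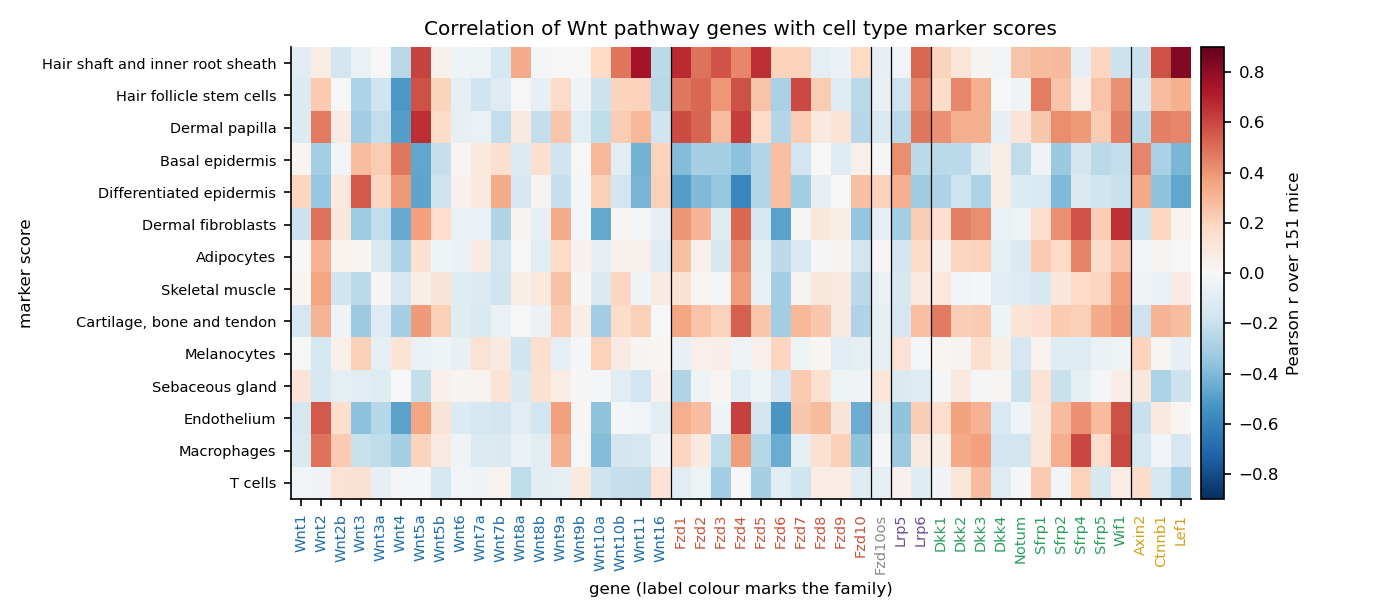
Pearson r over all mice used (colour) of each gene (columns, grouped by family and marked by label colour) with each marker score (rows). Lef1 and Wnt11 are darkest in the hair shaft row (0.836 and 0.751), Wif1 and Sfrp4 in the fibroblast and macrophage rows, and Wnt4 runs opposite to Fzd4 and Wnt5a in most rows.

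Among pairs of the 40 better measured genes, 26 of 780 had r of 0.5 or more and 8 had r of -0.4 or less. The highest was Fzd1 with Wnt5a, a receptor and a ligand (r = 0.735, rho = 0.720, permutation p = 1e-05 for each, 0.729 without the 2 farthest mice, and 0.692, 0.839 and 0.721 on the plates). Then followed Lef1 with Wnt11 (r = 0.703), Lef1 with Wnt5a (0.646), Fzd2 with Wnt5a (0.625), Fzd1 with Lef1 (0.617), Fzd5 with Lef1 (0.616), Fzd1 with Fzd2 (0.615), Fzd1 with Fzd4 (0.614), Fzd3 with Lef1 (0.610) and Ctnnb1 with Fzd1 (0.582). The 2 genes of each of these pairs lie on different chromosomes. With the hair shaft score also removed, Fzd1 and Wnt5a kept r = 0.554, whereas Lef1 had 0.310 with Wnt5a, 0.302 with Fzd3, 0.206 with Wnt11, 0.140 with Fzd1 (permutation p = 0.086) and 0.150 with Fzd5 (permutation p = 0.066). The 4 most negative pairs all held Wnt4: with Fzd4 (r = -0.473), Wnt5a (-0.470), Sfrp2 (-0.442) and Dkk2 (-0.438). On plate 3 the value for Dkk2 was -0.245 (permutation p = 0.069). The permutation p was 1e-05 for all 14 pairs, and all were picked for their r from the 780.

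The 8 genes most like Lef1 over all mice used, by r, included 4 of the hair shaft list. Of these 8, Krt35 (0.888), Krt82 (0.877), Krt32 (0.875) and Krt73 (0.874) are keratins of the hair shaft or its sheath, all 4 on the marker list, and Dsg4 (0.890) is a desmosomal cadherin of hair. The others were Pitrm1, a mitochondrial protease (0.890), S100a3, a calcium-binding protein of the hair cuticle (0.872), and Slc27a6, a fatty acid transporter (0.870). The lowest were Slc16a14 (-0.647), Il6ra (-0.632), Zfp652 (-0.626) and Jak1 (-0.613). With Lef1 as covariate, 15 of the other 44 Wnt pathway genes rose and 5 fell in limma, against 9.67% and 10.8% of all genes. The falling ones, in number near the share of all genes, were Wnt4 (r = -0.312), Wnt7b (-0.296), Wnt2b (-0.229, but rho = -0.127), Axin2 (-0.229) and Wnt3 (-0.225). With the hair shaft score as a second covariate the counts were 6 and 3, against 4.62% and 6.27% of all genes in that model, the score's own genes included.

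Axin2, often used as a reporter of beta-catenin activity, gave weaker likenesses. Its highest r was with Col17a1, the collagen of basal keratinocyte hemidesmosomes and a gene of the basal epidermis list (r = 0.491), followed by Rapgefl1 (0.458), Mark2 (0.457), Arvcf (0.453), Osbpl5 (0.449), Sun1 (0.445), Dgcr6 (0.444) and Ahnak2 (0.441). The lowest were Abce1 (-0.439), Tm4sf1 (-0.434), Cse1l (-0.404) and Atp2b1 (-0.395). With Axin2 as covariate, 3 of the other 44 genes rose and 1 fell, against 3.26% and 2.27% of all genes. Those that rose were Wnt3 (r = 0.330, adjusted p = 0.0042), Lrp5 (0.257, adjusted p = 0.041) and Wnt4 (0.243, adjusted p = 0.0499). Ctnnb1 itself fell (-0.334, adjusted p = 0.0046), and 1 falling gene is what the share of all genes gives. With each array centred on its median, or with quantile normalization, 1 rose, and no gene passed within a single plate, where between 2 and 4 rose and between 3 and 6 fell at an unadjusted p under 0.05. The share of all genes was not computed for these fits.

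The first comparison of groups asked whether any of these genes differ with Hras genotype. None passed the test: 0 of 45 were called in limma, against 0.112% of all genes (21 of 18810), although 5 (11.1%, against 6.57% of all genes) reached an unadjusted p below 0.05. Of the 45 differences (HET minus WT), 20 lay above 0, with a median of -0.01, while the median over all genes was nearer 0. The smallest p belonged to Wnt7b, a ligand of the epidermis that signals through beta-catenin. It ran from 5.19 through a median of 5.60 to 6.0 in HET mice, against 5.18 through 5.71 to 6.27 in WT mice. The groups overlapped almost wholly, and the fitted difference was -0.11 ± 0.04 (SE, limma adjusted p = 0.59), with -0.30, -0.16 and 0.03 on plates 1, 2 and 3. Sfrp2 ran from 4.85 through 5.85 to 6.74 in HET mice, against 4.93 through 6.10 to 8.00 in WT mice. Its difference was -0.23 ± 0.09 (SE, adjusted p = 0.62), with -0.30, 0.16 and -0.46 on the plates, so the sign turned on plate 2. The other 3 were higher in HET mice without passing: Wnt5b (0.13 ± 0.06, SE), Wnt9b (0.09 ± 0.04, SE) and Wnt6 (0.10 ± 0.05, SE), with Wnt9b at -0.04 on plate 2. Axin2 differed by 0.05 ± 0.04 (SE), Lef1 by -0.13 ± 0.10, Ctnnb1 by -0.02 ± 0.02, Lrp5 by 0.02 ± 0.02, Lrp6 by -0.01 ± 0.02, Wif1 by 0.07 ± 0.09 and Notum by -0.07 ± 0.05, none of which passed. The 22 hair shaft genes were all below 0 in this comparison (median -0.25, 0 called). Their mean level ran from 7.24 through 8.32 to 9.73 in HET mice and from 6.87 through 8.69 to 10.04 in WT mice, and their part in these differences was tested only as a covariate, with which again 0 of the 45 genes passed (3 at an unadjusted p under 0.05).

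The comparison of the sexes gave 3 called genes, all lower in males, against 2.51% of all genes called lower and 1.10% called higher in males. Lrp6, the co-receptor, ran from 7.58 through a median of 7.97 to 8.26 in males, against 7.86 through 8.05 to 8.33 in females. The ranges overlapped over most of their length, yet males lay lower by a small margin: -0.09 ± 0.02 (male minus female, SE, log2, limma adjusted p = 0.00096), with -0.07, -0.13 and -0.08 on the plates. Sfrp4 ran from 4.60 through 5.78 to 7.16 in males, against 4.83 through 6.04 to 7.45 in females. Its difference of -0.34 ± 0.09 (SE, adjusted p = 0.012) was the largest of the 45 in size, and was unevenly spread over the plates (-0.11, -0.24 and -0.62). In WT mice alone it was -0.44 (adjusted p = 0.0054) and in the fewer HET mice -0.04 (adjusted p = 0.99), and the test of that difference gave 0.45 ± 0.20 (SE, adjusted p = 0.998). Fzd1 ran from 7.42 through 7.89 to 8.54 in males, against 7.598 through 8.03 to 8.54 in females, a difference of -0.12 ± 0.03 (SE, adjusted p = 0.032).

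The Fzd1 call was not stable. It was lost with arrays centred on their median (-0.11, adjusted p = 0.076), with quantile normalization (adjusted p = 0.069), with plate as a random block (adjusted p = 0.086) and in WT mice alone (adjusted p = 0.13). With the hair shaft score as a covariate its difference was -0.05 (adjusted p = 0.32), while Lrp6 (-0.06, adjusted p = 0.019) and Sfrp4 (-0.36, adjusted p = 0.0097) still passed. The hair shaft genes themselves were lower in males for 22 of 22 (median -0.28, 3 called), with mean levels from 6.87 through 8.50 to 9.98 in males and from 7.07 through 8.75 to 10.04 in females. Sfrp4 had r = 0.445 with 6 adipocyte genes, all below 0 in males (median -0.24, 2 called), and 0.599 with 5 macrophage genes (median -0.02, 0 called). With the 7 dermal fibroblast genes, of which 3 were called higher and 1 lower in males (median -0.07), it had r = 0.565, and the part of these cells in its difference was not tested. The next genes were Fzd8 (-0.10 ± 0.03, SE, adjusted p = 0.060), Fzd5 (-0.13 ± 0.04, SE, adjusted p = 0.064) and Lef1 (-0.26 ± 0.09, SE, adjusted p = 0.080), which did not pass. In all, 9 of the 45 differences lay above 0 (median -0.04, beside -0.01 for all genes), and 14 genes (31.1%, against 16.4% of all genes) had an unadjusted p under 0.05. The split over all genes depended on the scaling, with 207 called higher and 473 lower in males as deposited, 291 and 283 with median-centred arrays, and 294 and 334 with quantile normalization. Of the 45 genes, 15 and 14 then lay above 0.

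**Figure D4:**
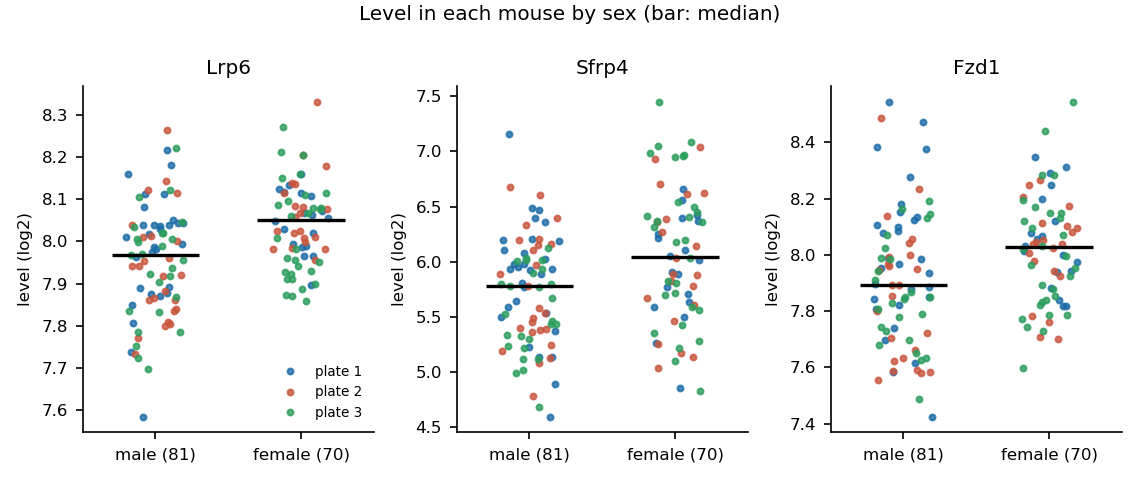
Level (y axes, log2) of Lrp6, Sfrp4 and Fzd1 in each of 81 males and 70 females, coloured by plate, with a bar at the median. Male medians are 7.97, 5.78 and 7.89, against female medians of 8.05, 6.04 and 8.03, and the ranges overlap for all 3 genes.

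**Figure D5:**
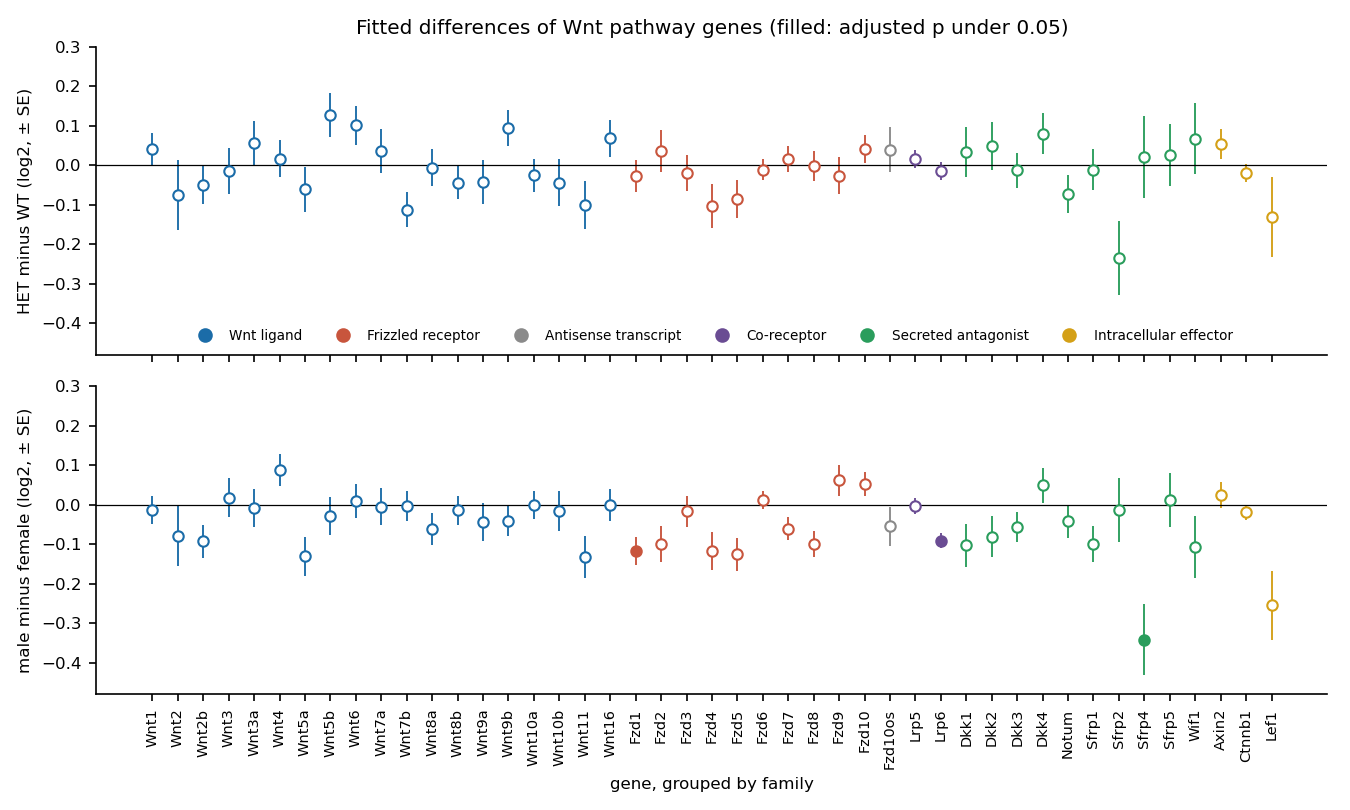
Fitted differences (y axes, log2, ± SE) of the 45 genes (x axis, grouped and coloured by family), HET minus WT above and male minus female below. Filled points passed an adjusted p of 0.05: none for genotype, and Fzd1, Lrp6 and Sfrp4 for sex.

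Wnt4 was the highest of the 45 above 0 (0.09 ± 0.04, SE, unadjusted p = 0.031), and Wnt5a (-0.13 ± 0.05, SE) and Wnt11 (-0.13 ± 0.05, SE) the lowest ligands, none of which passed. Axin2 (0.02 ± 0.03, SE), Ctnnb1 (-0.02 ± 0.02, SE), Lrp5 (-0.0033 ± 0.02, SE), Wif1 (-0.11 ± 0.08, SE) and Notum (-0.04 ± 0.04, SE) did not pass either.

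No gene showed a genotype difference that depended on sex in limma (0% of all 18810 genes called, 0 of the 45, 3 or 6.67% with an unadjusted p below 0.05, near the 4.76% of all genes). Fzd10 had the smallest p (-0.20 ± 0.07, SE, unadjusted p = 0.0037), before 4 antagonists with positive terms: Sfrp4 (0.45 ± 0.20), Sfrp2 (0.37 ± 0.18), Sfrp1 (0.20 ± 0.10) and Wif1 (0.34 ± 0.18). The adjusted p was 0.998 for each. Neither genotype by plate (0% of all genes called) nor sex by plate (0%) gave a called gene. For genotype by plate 6 of the 45 (13.3%, against 9.07% of all genes) had an unadjusted p under 0.05, led by Wnt7b (unadjusted p = 0.0060, adjusted p = 0.33) and followed by Wnt4, Sfrp2, Sfrp4 and Fzd4. For sex by plate 4 did (8.89%, against 5.74% of all genes), led by Notum, Wnt6 and Fzd10os. Plate itself moved 0 of the 45 genes, against 0.0213% of all genes (4 of 18810), and 4 had an unadjusted p under 0.05 (Fzd4, Wnt5a, Fzd1 and Fzd2, lower by 0.09 to 0.16 on plates 2 and 3 than on plate 1). Over all genes only 0.808% had a plate p under 0.05, and the sources used here do not say whether the values were adjusted for plate before deposit.

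Other genes of the pathway were read from 6 lists of non-members. With genotype none of their measured genes was called by limma, against 0.112% of all genes. Between the sexes, 8 were lower and 1 higher in males, against 2.51% and 1.10% of all genes. A single call in a list this short says nothing on the list as a whole. Of the 14 other extracellular inhibitors and modulators 3 were lower: Igfbp4, an IGF-binding protein that also binds Frizzled and Lrp6 (-0.28 ± 0.06, SE), the glypican Gpc3 (-0.25 ± 0.06, SE) and Frzb, a further Sfrp-type antagonist (-0.24 ± 0.06, SE). Of 11 secretion and amplifier genes 1 was lower, the R-spondin receptor and stem cell gene Lgr5 (-0.29 ± 0.06, SE). Of 15 genes of Dishevelled and the destruction complex 1 was lower, the kinase Gsk3b, which marks beta-catenin for decay (-0.08 ± 0.02, SE, adjusted p = 9.5e-05). Of 13 nuclear partners Pygo1, which joins beta-catenin to chromatin, was lower (-0.14 ± 0.04, SE), and of 14 other receptors the Wnt5a receptor Ror2 (-0.11 ± 0.04, SE). Of 18 targets and feedback genes Foxn1 was lower (-0.17 ± 0.05, SE) and Twist1, a mesenchymal transcription factor, higher (0.16 ± 0.05, SE). Foxn1 is also on the hair shaft list.

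Neighbouring genes of the set were also compared. Of 5 pairs with at most 2 other genes between them, Fzd10 and Fzd10os on chromosome 5 had r = 0.070 (permutation p = 0.39), Wnt3 and Wnt9b on chromosome 11 had 0.047, Wnt1 and Wnt10b on chromosome 15 had 0.007, Wnt6 and Wnt10a on chromosome 1 had -0.018, and Wnt3a and Wnt9a on chromosome 11 had -0.061 (permutation p = 0.46), each over all mice used. Wnt1 and Wnt9b are among the poorly measured genes, so that a shared pattern could be missed there. None of the 5 values stood apart from 0 in these mice. Notum alone had 2 probe sets, with means of 4.16 and 3.48, which had r = 0.145 with each other, so that statements on Notum rest on the brighter of them alone.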

How the data were processed

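Gene expression was measured on 1 Affymetrix array per mouse. The values deposited by the authors are log2 signals, 1 per probe set, made with RMA, per the submitters' processing notes (background correction, normalization between arrays and probe summary). The sources used here give neither an RMA version nor a genome build for the array. Of 35556 rows 171 were empty. By the platform annotation 21201 probe sets had 1 gene symbol, 1881 had several and 12303 had none. Identifiers of 21168 were found in RefSeq (GRCm38.p6), and the highest-mean probe set per gene gave 18810 genes.

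Groups came from the labels, and mice are separate animals. Group differences came from limma 3.58.1 under R 4.3.3 (eBayes with a mean-variance trend; genotype, sex and plate in 1 model), with data.table in version 1.17.8 to read files. A gene was called at a Benjamini-Hochberg adjusted p under 0.05 over all genes. A marker score or an anchor gene (Axin2, Lef1) entered as a covariate, without its own genes among those tested. The exceptions were the fits with the hair shaft score beside Lef1, or as an added covariate for genotype and sex. These kept the hair shaft genes among those tested. Correlations used residuals after plate, sex and genotype, with two-sided permutation p from 100000 draws, computed with numpy 2.4.6 and scipy 1.17.1 under Python 3.11.15. Tables were handled with pandas 2.3.3 and plots drawn with matplotlib 3.10.9. The fits were run on simulated data with known changes, in which each gene varied independently of the others. The measured genes vary together, and the simulation does not cover that. The genes and lists were chosen with earlier results of these data known. Named were all called genes, otherwise the 5 with the smallest p, the 10 with the largest residual SD, the 10 highest and 4 lowest pairs, the 8 most and 4 least like each anchor gene, and up to 3 called per pathway list. Examples from the 11 further marker scores, and genes ranked by their correlation with the 3 tested scores, were chosen after their values were seen. Alternatives covered the arrays labelled outlier, scaling, dim genes, probe set choice, variance trend, plate, covariates, and each sex or genotype alone.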

Additional observations from a re-analysis of the deposited data

How the results depend on the processing

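Among the 45 genes, the counts called for genotype, for genotype by sex, for genotype by plate and for plate were 0 under every alternative run for each. For genotype limma called 0 genes of all 18810 on plate 1, on plate 3 and in males alone, and 10 in females alone, and for sex 52 on plate 1, 72 on plate 2 and 26 in HET mice, against 680 in all mice used. In the genotype comparison the sign turned for Sfrp2 (0.165) and Wnt9b (-0.042) on plate 2 alone and for Wnt7b (0.031) on plate 3 alone. For sex the main count of 3 became 5 with the 2 arrays labelled outlier included (adding Fzd5 and Fzd8), 0 on plate 1 alone, 0 on plate 2 alone and 1 on plate 3 alone (Sfrp4), and 0 in HET mice alone. At an unadjusted p under 0.05 limma gave 3, 12 and 4 genes where it called 0 on plate 1, on plate 2 and in HET mice. These subsets hold fewer mice.

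On plate 1 alone 1 gene fell with the hair shaft score, 8 rose with the fibroblast score, 2 rose and 7 fell with the basal epidermis score, 0 rose and 0 fell with Axin2 and 1 fell with Lef1. On plate 2 alone 0 fell with the hair shaft score, 4 fell with the fibroblast score, 7 fell with the basal epidermis score, 0 rose and 0 fell with Axin2 and 0 fell with Lef1. On plate 3 alone 8 rose and 0 fell with the hair shaft score, 6 rose and 1 fell with the fibroblast score, 0 rose and 3 fell with the basal epidermis score, 0 rose and 0 fell with Axin2 and 0 fell with Lef1. With the outlier arrays included 5 fell with Axin2, with median-centred arrays 1 rose with it, and with quantile normalization 1 rose and 2 fell. With the 3 scores in 1 model 1 gene fell with the hair shaft score and 1 with the basal epidermis score. With the hair shaft score as a covariate 6 genes rose and 3 fell with Lef1. With that score removed, r was 0.140 for Fzd1 and Lef1 and 0.150 for Fzd5 and Lef1, and on plate 3 alone it was -0.245 for Dkk2 and Wnt4. The causes of these shifts were not tested, and single plates hold fewer mice. Counts that changed little from the main fit are left out here. The share of all genes called was not computed for single plates, other scalings or the outlier arrays. The counts for those fits therefore cannot be set against all genes. The score, anchor gene and residual SD alternatives were chosen after seeing the data.

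Of 487 alternative values, 3 turned sign. Among counts of Wnt pathway genes and the named pairs, 174 values were held to be the same and 35 counts moved. For a count this means a similar size. For a pair it means only that r kept its sign with a permutation p under 0.05, whatever its size. Lef1 with Wnt11 was so counted although r went from 0.703 to 0.206 with the hair shaft score removed. A further 3 correlations of pairs no longer had a permutation p under 0.05. Among the other values, 244 were held to be the same, 8 moved, 16 lost a call and 4 gained a call. A difference of a single gene was held to be the same if its sign and its call were unchanged, whatever its size. Counts over all genes and residual SDs were compared by size. The genes above the 95th percentile of residual SD numbered 5 under both scalings and with the outlier arrays included. Leaving out single mice was not run, since groups hold 37 mice or more. No paired analysis was possible because the mouse numbers do not link HET with WT mice.

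The values carry no depth, and signals near the background limit Wnt1, Wnt7a, Wnt8b, Wnt9b and Dkk4. Cell type scores come from the same arrays as the genes, and the part of shared array error in the correlations was not tested. Spretus alleles at probe sites were not examined.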

Other observations

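The 2 arrays labelled outlier, both of WT males on plate 2, differed in how the Wnt pathway genes lay. On the first, 1 of 45 genes (Fzd8) lay outside the range of all other mice, or 2.22%, beside 6.65% of all genes. On the second, 12 of 45 lay outside it, or 26.7%, beside 9.37% of all genes: 7 below the range and 5 above it. They were Fzd1, Fzd3, Fzd4, Fzd6, Fzd10, Lrp5, Lef1, Sfrp2, Sfrp4, Wnt4, Wnt5a and Wnt10a.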
